A study of Mus musculus with 18 samples.

Results

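The genes described here were 49 genes of the actin and tubulin cytoskeleton, taken by symbol from the 52636 genes of the count table: 3 actins, 6 proteins that bind actin monomers or sever and cap filaments, 4 crosslinkers and bundlers, 4 tropomyosins, 6 myosin subunits, 5 calponins and transgelins, 3 focal adhesion proteins, 3 linkers to the membrane, 3 CDC42 effectors, the intermediate filament protein vimentin, 4 alpha tubulins, 6 beta tubulins and the tubulin-sequestering protein stathmin. They were measured by RNA-seq in epidermal cells of C57BL/6 mice, sorted as EpCAM+ cells without CD45, CD140a and CD31, from back skin. Zfp36 fl/fl mice, littermates that carried the floxed allele alone, were the controls, and Zfp36 ΔK14 mice carried the same floxed allele and Cre under the human keratin 14 promoter, which acts in basal epidermal cells and in other keratin 14-expressing epithelia. Zfp36 encodes tristetraprolin, a protein that binds AU-rich elements in mRNA and promotes decay. Young adult mice of both genotypes gave 3 kinds of samples: mock-treated skin, nontumoral skin treated with the carcinogen DMBA and then repeatedly with the tumor promoter TPA, and papillomas raised by the same treatment, each with 3 deposited libraries. The labels name the source as whole skin and call the treated cells tumoral, whereas the study's methods describe sorted cells from treated skin beside the tumors.

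Replicates 2 and 3 of Zfp36 ΔK14 mock skin were identical in every gene and were used as 1 library, so that group had n = 2, every other group had n = 3, and 17 libraries were compared. Total counts ran from 2808550 to 9617985 per library, with a median of 5567614, and the 49 genes together took 0.946% to 1.97% of them. Zfp36 itself read 177 to 242 CPM in fl/fl tumors and 10.1 to 18.6 CPM in ΔK14 tumors, a log2 difference of −4.10 ± 0.30 (SE, adjusted p = 0.00882). Keratinocyte markers (Krt5, Krt14, Krt1, Krt10, Epcam, Cdh1, Trp63, Itga6) were all detected in every group, at a summed 3830 to 32500 CPM. Some libraries stood apart: replicate 1 of mock skin in each genotype had a keratinocyte sum of 3860 and 3830 CPM against 19700 to 22500 CPM in the other 3 mock libraries, and fl/fl tumor replicate 1, the shallowest library, had 32500 CPM against 10200 and 11400 CPM in the other fl/fl tumors and 26300 to 27100 CPM in ΔK14 tumors. Counts that rest on these libraries are given with and without them. The same is done for some, but not all, of the changes from treated skin to tumor that fl/fl tumor replicate 1 moved.

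Actin monomers assemble into filaments that shape the cell cortex, stress fibers and adhesions, and the proteins around them decide how filaments grow, are cut, bundled, coated or pulled. Tubulin alpha and beta subunits join into dimers that build microtubules, and mammals carry several genes, called isotypes, for each subunit. In epidermis, this cytoskeleton supports the shape change, spreading and movement of keratinocytes in wounds and tumors, beside the keratin filaments that carry the mechanical load.

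The coding sequences are shown first because the isotypes are close enough that reads can be hard to assign. The last 30 coding bases of both actins and 4 beta tubulins are given on the coding strand, 5′ to 3′, from GENCODE transcripts of the GRCm38 build, and capitals mark the stop codon:
Actb: ccctccatcgtgcaccgcaagtgcttcTAG
Actg1: ccctccatcgtccaccgcaaatgcttcTAG
Tubb2a: gaggaggaggagggtgaagatgaggctTGA
Tubb2b: gaggaggaagagggcgaggatgaggctTGA
Tubb3: gaggaatcggaagcccaggggcccaagTGA
Tubb5: ttcggagaggaggcagaagaggaggccTAA

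Over the whole coding sequence, Tuba1a and Tuba1b were 98.3% identical, Tuba1b and Tuba1c 98.4%, and Tubb2a and Tubb2b 96.5%, whereas Actb and Actg1 were 88.7% identical. Tuba1b, Tuba1a and Tuba1c lie together on chromosome 15 (chr15:98931425-98934565, chr15:98949837-98953703 and chr15:99029891-99038110), and Tubb2a and Tubb2b lie together on chromosome 13 (chr13:34074274-34078007 and chr13:34126748-34130466). How reads that match several genes were counted is not given in the sources used here, so the split within the Tuba1 genes and between Tubb2a and Tubb2b is uncertain.

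The first question was how the cytoskeleton genes change between treated skin and the papillomas that arise in it. In tumor cells, both cytoplasmic actins, most actin crosslinkers, 3 of the 4 tropomyosins, moesin and Tubb6 rose in both genotypes, while the myosin heavy chains Myh10 and Myh14, profilin 2 and Tuba1a fell. In fl/fl cells 17 of the 48 members tested were higher in tumors and 7 were lower (a change of more than 2-fold with an adjusted p below 0.05, termed a call), where 7.5% and 10.5% of all genes tested were called higher and lower. In ΔK14 cells 26 of 48 were higher and 7 were lower, against 10.5% and 15.5% of all genes. The median log2 change of the members was 0.77 in fl/fl and 1.06 in ΔK14 cells, beside −0.02 and −0.03 for all genes tested. The 8 keratinocyte markers moved in the same comparisons, with a median of 0.84 in fl/fl and 0.95 in ΔK14 cells, 2 and 4 called higher and 0 and 1 called lower, and their part in the members' changes was not tested.

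These changes are relative to the TMM scaling, which sets most genes level between libraries. On raw library totals, the median of all genes shifted by −0.47 in fl/fl and −0.44 in ΔK14 cells. The split of calls became 6 higher and 12 lower in fl/fl, beside 3.41% and 20.7% of all genes. In ΔK14 cells it became 12 higher and 9 lower, beside 6.08% and 26.6% of all genes. No called member changed its direction on raw totals, but both actins then lost the call, with log2 changes of 0.65 and 0.84 for Actb and 0.73 and 0.91 for Actg1 in fl/fl and ΔK14 cells. Among members not called, Actn4, Tpm1, Zyx and Tln1 in fl/fl cells and Rdx, Tubb2a and Tubb4b in ΔK14 cells changed sign on raw totals. The summed level of the 49 genes was 9610 ± 854 CPM (SD, n = 3) in fl/fl treated skin and 17800 ± 4540 CPM in fl/fl tumors with TMM scaling, and 11500 ± 710 and 14600 ± 1670 CPM on raw totals. In ΔK14 cells the sum was 9830 ± 598 CPM in treated skin and 23700 ± 2460 CPM in tumors with TMM scaling, and 11200 ± 600 and 18600 ± 963 CPM on raw totals. All other levels are CPM on TMM-scaled library sizes, and log2 changes are given ± SE with the adjusted p of edgeR's quasi-likelihood test. In sorted cells, as in any bulk sample, a larger share of cells of a type and more RNA per cell cannot be told apart.

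**Figure D1:**
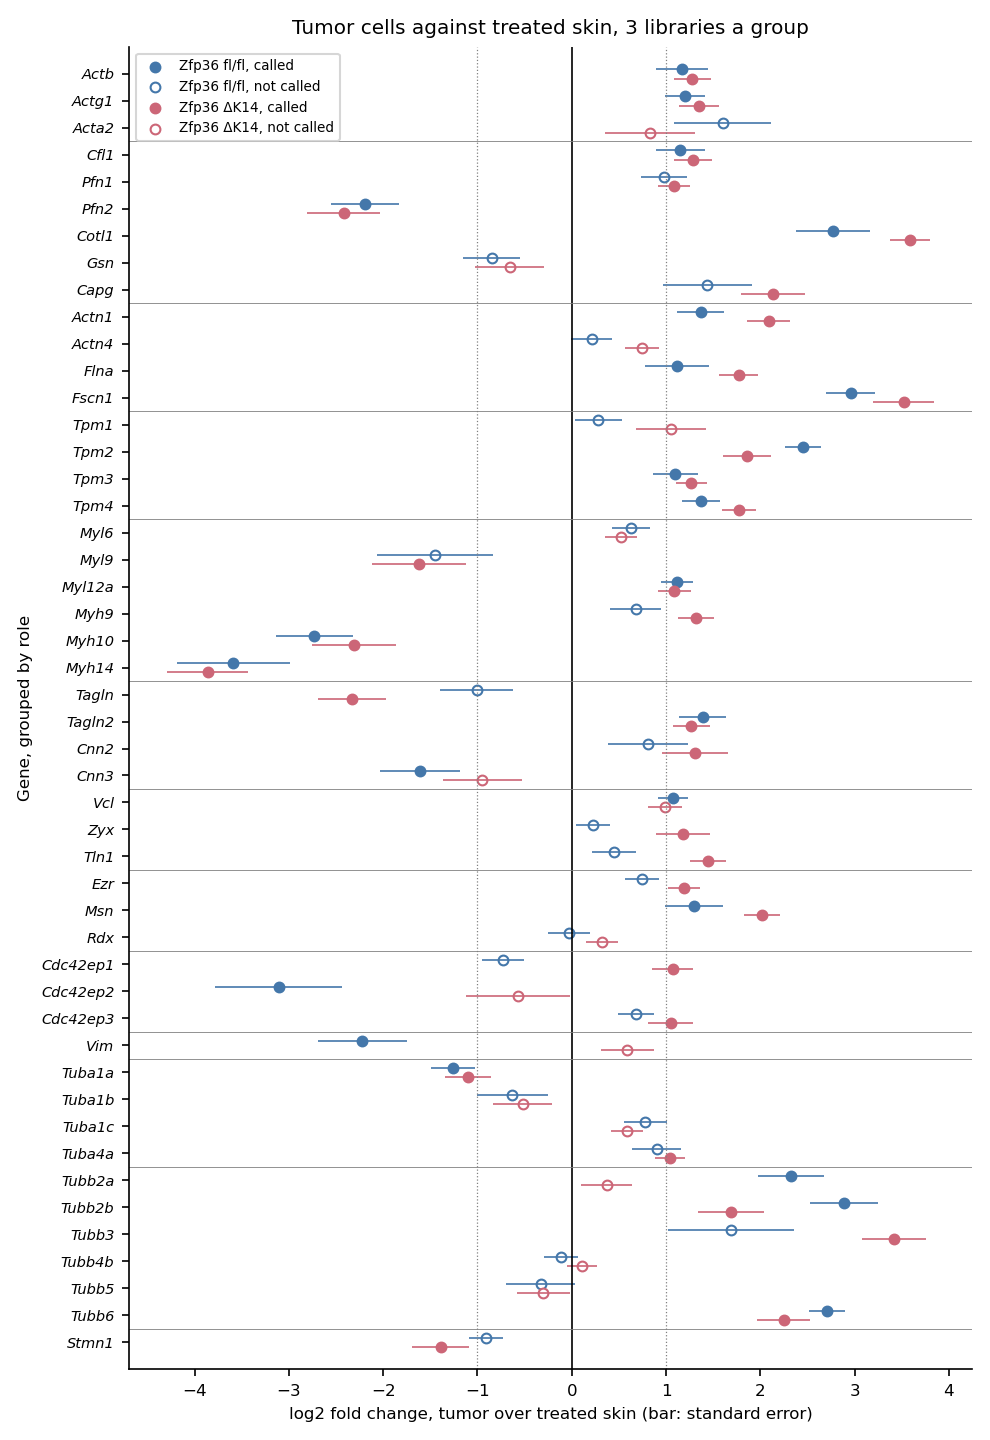
Log2 fold change of 48 cytoskeleton genes in tumors over treated skin (x axis), with each gene on its own row and grouped by role; circles are the estimate in Zfp36 fl/fl (blue) and Zfp36 ΔK14 cells (red), bars are the standard error, filled circles passed the threshold for a call, and dotted lines mark a 2-fold change. Fscn1 and Cotl1 lie far to the right and Myh14 far to the left in both genotypes, while Vim and Cdc42ep1 lie on opposite sides of 0.

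Of the actins, Actb encodes beta-actin and Actg1 gamma-actin, the forms of nonmuscle cells, and Acta2 the smooth muscle alpha form. Actb, on chromosome 5 (chr5:142903115-142906754), read 2050, 2440 and 1770 CPM in fl/fl treated skin and 6510, 3640 and 4200 CPM in fl/fl tumors. In ΔK14 cells it read 2190, 1940 and 2430 CPM in treated skin and 5540, 5200 and 6260 CPM in tumors. All 6 tumor libraries lay above all 6 treated libraries. The log2 change was 1.17 ± 0.28 in fl/fl (adjusted p = 0.0219) and 1.28 ± 0.20 in ΔK14 cells (adjusted p = 0.0024). In fl/fl cells the fold fell under 2 without tumor replicate 1 (0.89 ± 0.20, adjusted p = 0.00947). Actg1 rose too, from 593 to 827 CPM to 1600 to 1900 CPM in fl/fl and from 580 to 882 CPM to 1670 to 2170 CPM in ΔK14 cells (log2 change 1.20 ± 0.21 and 1.35 ± 0.21, adjusted p = 0.00757 and 0.00237).

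Per kilobase of exon, the 3 actins summed to 1060 ± 169 CPM per kb in fl/fl treated skin and 2450 ± 523 in fl/fl tumors, and to 1090 ± 143 and 2850 ± 292 in ΔK14 cells. Actb made up 73.4% ± 1.85 of that sum in fl/fl treated skin, 71.9% ± 7.39 in fl/fl tumors, and 75.1% ± 1.90 and 74.3% ± 1.67 in ΔK14 cells. Actb was also the gene against which the study scaled its quantitative PCR of tumor genotypes, and its own genotype difference in tumors was 0.11 ± 0.25 (log2, adjusted p = 0.871). This difference ran from −0.04 to 0.42 with a tumor library left out. In fl/fl tumors Actb read 6510 CPM in replicate 1 and 3640 and 4200 CPM in the others, beside 5200 to 6260 CPM in ΔK14 tumors.

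Acta2 made up at most 1.10% ± 0.702 of the actin level in the means of these 4 groups. It read 22.6, 6.80 and 5.36 CPM in fl/fl treated skin and 37.1, 34.4 and 38.3 CPM in fl/fl tumors, which did not pass the test (1.60 ± 0.51, adjusted p = 0.0547) with all libraries and passed it without tumor replicate 1 (1.58 ± 0.52, adjusted p = 0.0423). Its ΔK14 values were 29.6, 35.9 and 8.96 CPM in treated skin and 38.9, 35 and 70.3 CPM in tumors, and the groups overlapped. Smooth muscle and pericyte markers outside the 49 genes summed to 264 to 316 CPM in fl/fl treated skin, 168 to 209 CPM in fl/fl tumors, 188 to 304 CPM in ΔK14 treated skin and 151 to 240 CPM in ΔK14 tumors, so their sum was no higher in tumors. Of the 10, Smtn, Notch3 and Cspg4 gave most of the sum, and Smtn read 75.3 to 146 CPM in fl/fl and 87 to 160 CPM in ΔK14 tumors. Des was at 0 in all 6 tumors, Myh11 read 0.447 to 1.51 CPM there and Rgs5 0.38 to 9.84 CPM. Of the 7 and 6 tested in fl/fl and ΔK14 cells, 2 and 2 had a positive change from treated skin to tumor, 2 and 2 were called lower and 0 higher. The part of such cells in the Acta2 level was not tested.

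Among the proteins that bind monomers or cut and cap filaments, Cotl1, which encodes the filament-binding coactosin-like protein, changed most. It read 26.0, 26.3 and 23.9 CPM in fl/fl treated skin and 300, 128 and 106 CPM in fl/fl tumors. The ΔK14 libraries read 23.3, 21.5 and 30.8 CPM in treated skin and 277, 314 and 381 CPM in tumors. The log2 change was 2.77 ± 0.39 in fl/fl (6.80-fold, adjusted p = 0.0038) and 3.59 ± 0.21 in ΔK14 cells (12.1-fold, adjusted p = 0.000165), and fl/fl tumor replicate 1 was the highest of its group.

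Cfl1, the filament-severing cofilin 1, was called higher in both genotypes, by 1.15 ± 0.26 in fl/fl (adjusted p = 0.0174) and 1.29 ± 0.20 in ΔK14 cells (adjusted p = 0.00239). Profilins bind actin monomers. Pfn1 read 169 to 204 CPM in fl/fl treated skin and 502, 293 and 305 CPM in fl/fl tumors, just under a 2-fold change (0.98 ± 0.24, adjusted p = 0.0235), and rose in ΔK14 cells (1.08 ± 0.17, adjusted p = 0.00225). Pfn2 read 18.1, 18.2 and 27.1 CPM in fl/fl treated skin and 2.51, 5.19 and 5.90 CPM in fl/fl tumors. For ΔK14, the values were 17.6, 18.3 and 8.79 CPM against 2.01, 3.27 and 3.61 CPM. Pfn2 fell in both genotypes (−2.19 ± 0.36, adjusted p = 0.00625, and −2.42 ± 0.39, adjusted p = 0.00248), and no tumor library reached a treated one.

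Gelsolin and CapG cap filaments. Capg read 47.7, 61.8 and 37.9 CPM in fl/fl treated skin and 256, 78.9 and 76.7 CPM in fl/fl tumors, which did not pass the test (1.44 ± 0.47, adjusted p = 0.0572) and was a change of 0.66 ± 0.20 without tumor replicate 1 (adjusted p = 0.0343). It rose in ΔK14 cells from 25.1, 43.5 and 72.7 CPM to 188, 215 and 261 CPM (2.14 ± 0.34, adjusted p = 0.00236). Gsn did not pass the test in either genotype (−0.85 ± 0.30 and −0.66 ± 0.37, adjusted p = 0.0719 and 0.188) but was called lower in both on raw totals (−1.3 and −1.1, adjusted p = 0.0243 and 0.0326), and its tumor and treated libraries overlapped.

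Of the crosslinkers and bundlers, 3 of 4 were called higher in each genotype. Fscn1, which encodes fascin, a bundler of filaments in protrusions that lies close to Actb on chromosome 5 (chr5:142960343-142973185), read 40.6, 31.4 and 33.6 CPM in fl/fl treated skin and 371, 273 and 203 CPM in fl/fl tumors. ΔK14 cells gave 53.7, 30.5 and 27.4 CPM in treated skin and 377, 384 and 607 CPM in tumors. Every tumor library was well above every treated one, and the log2 change was 2.96 ± 0.26 in fl/fl (7.79-fold, adjusted p = 0.00116) and 3.52 ± 0.32 in ΔK14 cells (11.4-fold, adjusted p = 0.000322).

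Actn1, alpha-actinin 1, a crosslinker of stress fibers and adhesions, rose from 161 to 179 CPM to 331 to 631 CPM in fl/fl (1.37 ± 0.25, adjusted p = 0.00885) and from 140 to 188 CPM to 573 to 843 CPM in ΔK14 cells (2.09 ± 0.23, adjusted p = 0.000539). Its paralog Actn4 read 373 to 471 CPM in fl/fl treated skin and 431 to 645 CPM in fl/fl tumors and was not called (0.21 ± 0.22, adjusted p = 0.508), and changed by under 2-fold in ΔK14 cells (0.75 ± 0.18, adjusted p = 0.013). Flna, filamin A, a large crosslinker encoded on the X chromosome, read 485 to 519 CPM in fl/fl treated skin and 1770, 886 and 692 CPM in fl/fl tumors (1.12 ± 0.34, adjusted p = 0.0447), and the fold fell under 2 without tumor replicate 1 (0.64 ± 0.17, adjusted p = 0.0178). In ΔK14 cells Flna read 557, 629 and 509 CPM in treated skin and 1800, 1960 and 2440 CPM in tumors (1.77 ± 0.21, adjusted p = 0.000845).

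Tropomyosins coat filaments and set which proteins can reach them. Tpm2 read 48.5, 40.6 and 49.4 CPM in fl/fl treated skin and 260, 230 and 282 CPM in fl/fl tumors (2.45 ± 0.19, 5.45-fold, adjusted p = 0.00102). In ΔK14 cells it read 51.1, 89.7 and 56.1 CPM against 246, 271 and 254 CPM (1.86 ± 0.25, adjusted p = 0.00136). Tpm3 and Tpm4 also rose, by 1.10 ± 0.24 and 1.37 ± 0.20 in fl/fl (adjusted p = 0.0164 and 0.00438) and by 1.27 ± 0.16 and 1.77 ± 0.18 in ΔK14 cells (adjusted p = 0.00109 and 0.000462). For Tpm3, the fl/fl fold fell under 2 without tumor replicate 1 (0.82 ± 0.14). Tpm1 did not pass the test in either genotype: it read 202, 190 and 309 CPM against 327, 240 and 303 CPM in fl/fl, and 293, 394 and 132 CPM against 500, 653 and 679 CPM in ΔK14 cells, where the groups did not overlap (1.05 ± 0.37, adjusted p = 0.0544).

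Myosin II pulls on actin filaments, and its heavy chain genes did not share a direction. Myh9, the heavy chain of nonmuscle myosin IIA, read 797, 683 and 487 CPM in fl/fl treated skin and 1440, 937 and 842 CPM in fl/fl tumors without a call (0.68 ± 0.27, adjusted p = 0.104). It rose in ΔK14 cells from 573 to 765 CPM to 1560 to 1850 CPM (1.32 ± 0.19, adjusted p = 0.00169). Myh10, the heavy chain of myosin IIB, read 51.8, 35.1 and 51.4 CPM in fl/fl treated skin and 2.51, 10.4 and 6.88 CPM in fl/fl tumors (−2.73 ± 0.41, adjusted p = 0.00496). Its ΔK14 values were 59.4, 47.1 and 22.8 CPM against 4.70, 14.2 and 8.93 CPM (−2.31 ± 0.45, adjusted p = 0.00532). Myh14, the heavy chain of myosin IIC, read 63.5, 72.1 and 87.7 CPM in fl/fl treated skin and 4.52, 11.8 and 0.983 CPM in fl/fl tumors. The ΔK14 libraries read 41.4, 57.3 and 27.7 CPM against 4.03, 3.81 and 1.52 CPM.

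Myh14 thus had the steepest fall of the 49 genes in each genotype (−3.59 ± 0.60, adjusted p = 0.00667, and −3.86 ± 0.43, adjusted p = 0.000612), with counts of 9, 77 and 3 reads in the fl/fl tumors. Of the light chains, Myl12a was called higher in both genotypes (1.12 ± 0.17 and 1.09 ± 0.18, adjusted p = 0.00477 and 0.00255), and Myl6 changed by under 2-fold in both (0.63 ± 0.20 and 0.52 ± 0.17). The smooth muscle light chain Myl9 was low, at 8.36, 2.63 and 2.48 CPM in fl/fl treated skin, 2.01, 1.37 and 1.97 CPM in fl/fl tumors, 5.92, 7.44 and 2.54 CPM in ΔK14 treated skin and 2.46, 1.27 and 1.90 CPM in ΔK14 tumors. It was called lower in ΔK14 cells alone (−1.62 ± 0.50, adjusted p = 0.0322), and the difference between the genotypes was −0.14 ± 0.84 (adjusted p = 0.963).

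Calponins and transgelins bind along filaments, and Tagln, Acta2 and Cnn1 are widely used as smooth muscle markers. Tagln2, the form of nonmuscle cells, rose from 204 to 225 CPM to 792, 519 and 406 CPM in fl/fl (1.39 ± 0.25, adjusted p = 0.00886) and from 240, 215 and 295 CPM to 602, 547 and 777 CPM in ΔK14 cells (1.27 ± 0.20, adjusted p = 0.00231). Tagln read lower in tumors and passed the test in ΔK14 cells, from 19.8, 15.6 and 8.89 CPM to 6.52, 5.80 and 10.2 CPM in fl/fl (−1.01 ± 0.39, adjusted p = 0.0919) and from 25.8, 34.3 and 16.2 CPM to 4.47, 7.26 and 4.56 CPM in ΔK14 cells (−2.33 ± 0.36, adjusted p = 0.00212). Cnn3 read 55.0, 41.2 and 83.4 CPM in fl/fl treated skin and 9.53, 20.3 and 29.2 CPM in fl/fl tumors (−1.61 ± 0.42, adjusted p = 0.0295), and its groups overlapped in ΔK14 cells (−0.95 ± 0.42, adjusted p = 0.106).

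Cnn2 was called higher in ΔK14 cells (1.31 ± 0.35, adjusted p = 0.02), from 16, 29.4 and 44.3 CPM to 53.0, 93.7 and 91.0 CPM, and not in fl/fl cells (0.81 ± 0.42, adjusted p = 0.187). Cnn1, with 0 to 12 reads in any library, was too low to test.

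At focal adhesions, where filaments are tied to integrins, 3 genes were measured. Vcl, vinculin, read 150, 136 and 123 CPM in fl/fl treated skin and 293, 306 and 276 CPM in fl/fl tumors, and 132, 175 and 176 CPM against 314, 358 and 356 CPM in ΔK14 cells. It was called higher in fl/fl cells and lay just under the 2-fold line in ΔK14 cells (1.07 ± 0.16, adjusted p = 0.0051, and 0.99 ± 0.18, adjusted p = 0.00425). Tln1, talin 1, read 188, 174 and 121 CPM in fl/fl treated skin and 280, 211 and 182 CPM in fl/fl tumors without a call (0.45 ± 0.23, adjusted p = 0.187). It rose in ΔK14 cells from 131, 122 and 159 CPM to 316, 409 and 476 CPM (1.45 ± 0.19, adjusted p = 0.00133). Zyx, zyxin, was not called in fl/fl and rose in ΔK14 cells (0.23 ± 0.18, adjusted p = 0.358, in fl/fl, and 1.18 ± 0.29, adjusted p = 0.0136, in ΔK14 cells).

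Of the linkers between filaments and the cell membrane, Msn, moesin, read 226, 244 and 257 CPM in fl/fl treated skin and 944, 465 and 424 CPM in fl/fl tumors, and 246, 251 and 276 CPM against 948, 1090 and 1320 CPM in ΔK14 cells. It was called higher in both (1.30 ± 0.31, adjusted p = 0.0221, and 2.02 ± 0.19, adjusted p = 0.000336), and in fl/fl the fold fell under 2 without tumor replicate 1 (0.86 ± 0.14, adjusted p = 0.00302). Ezr, ezrin, changed by 0.75 ± 0.18 in fl/fl (adjusted p = 0.0225), under 2-fold, and rose by 1.19 ± 0.17 in ΔK14 cells (adjusted p = 0.00157). Rdx, radixin, was not called (−0.03 ± 0.22 and 0.32 ± 0.17, adjusted p = 0.924 and 0.174).

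**Figure D2:**
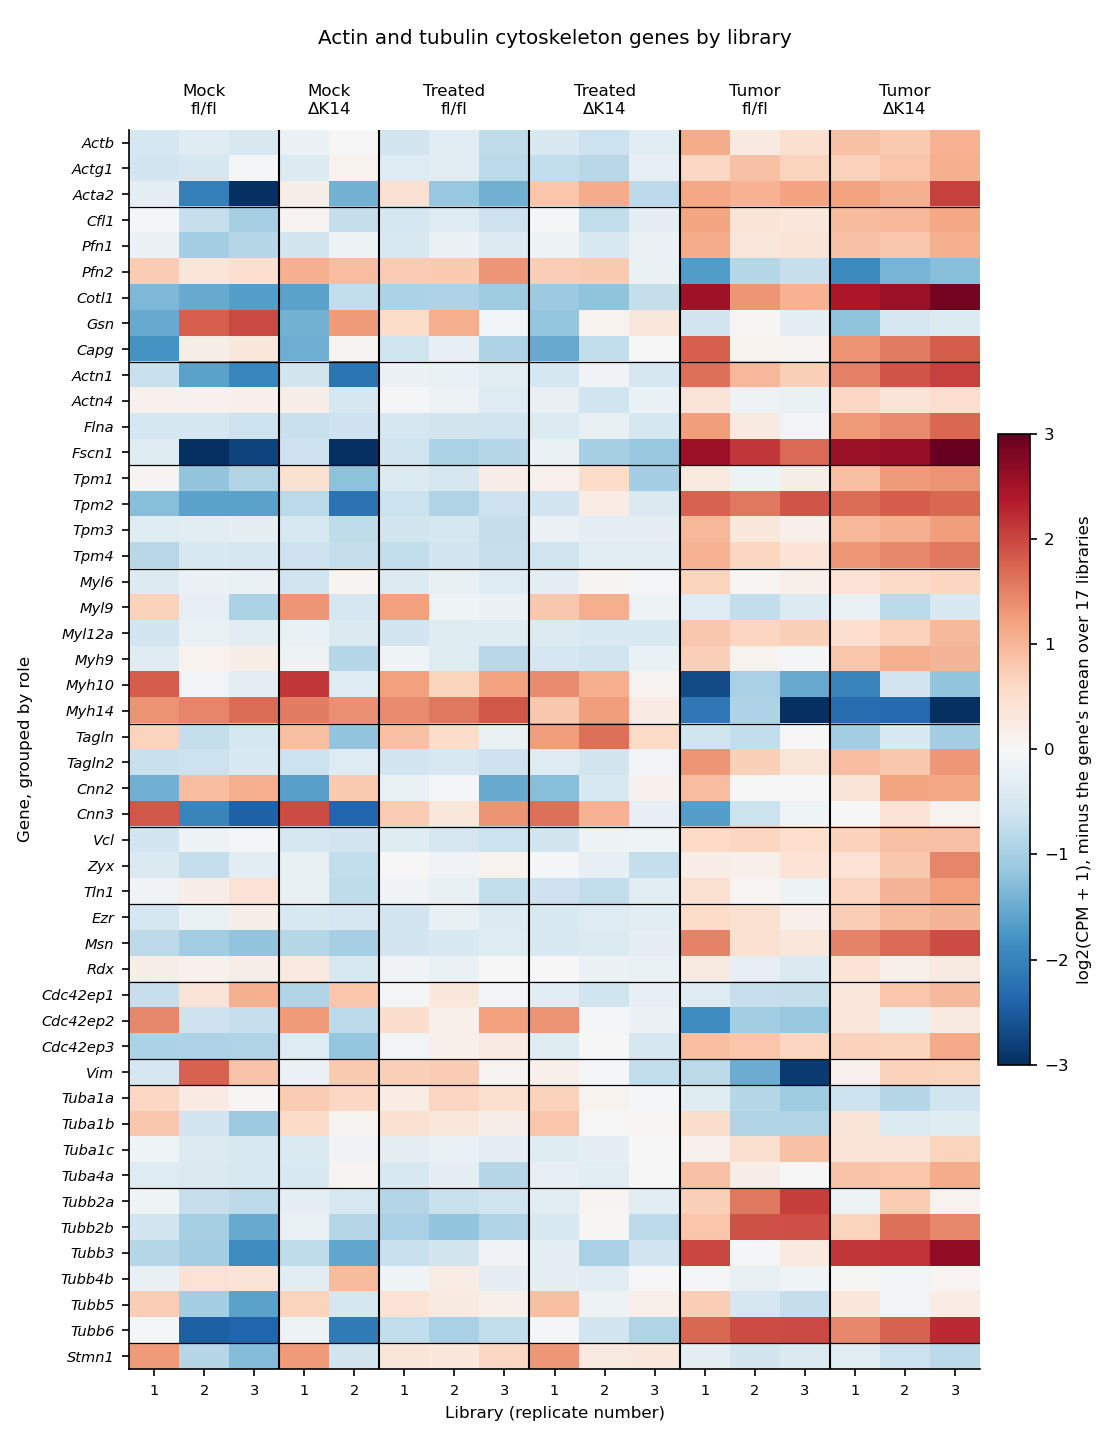
Heat map of 48 cytoskeleton genes (rows, grouped by role) in 17 libraries (columns, by group and replicate number); color gives log2(CPM + 1) minus the gene's mean over the 17 libraries, red above and blue below the mean, and the color scale ends at 3 in either direction. The tumor columns are red for most actin-side genes and blue for Pfn2, Myh10 and Myh14, and mock replicate 1 of each genotype is unlike the other mock libraries in Gsn, Fscn1, Cnn3 and Tubb6.

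CDC42EP proteins bind the GTPase CDC42 and shape actin and septin filaments, and the fitted changes of Cdc42ep1 had opposite signs in the genotypes: it read 21.5, 28.5 and 21.3 CPM in fl/fl treated skin and 17.1, 13.6 and 13.4 CPM in fl/fl tumors (−0.73 ± 0.22, adjusted p = 0.0477). For ΔK14, the values were 17.6, 14.5 and 18.9 CPM against 28.2, 40.8 and 45.2 CPM (1.07 ± 0.22, adjusted p = 0.0064). The difference between these changes did not pass the test (1.81 ± 0.31, adjusted p = 0.114). Vim, the intermediate filament protein of mesenchymal cells that some epithelial cells also make, read 50.3, 52.4 and 32.2 CPM in fl/fl treated skin and 17.1, 10.2 and 3.28 CPM in fl/fl tumors, a call lower (−2.22 ± 0.47, adjusted p = 0.0153). In ΔK14 cells Vim read 34.1, 29.8 and 17.8 CPM in treated skin and 33.3, 50.1 and 49 CPM in tumors, where the groups overlapped (0.59 ± 0.28, adjusted p = 0.129). Markers of other cells that make vimentin moved with it in fl/fl cells: the fibroblast list summed to 394 to 640 CPM in treated skin and 83.3 to 200 CPM in tumors, and the melanocyte and Schwann cell list to 58.3 to 136 and 9.18 to 34.4 CPM. In ΔK14 cells, where Vim did not fall, both sums spread widely and were also lower in tumors without overlap. They were 439 to 963 against 32.9 to 399 CPM, and 55.4 to 376 against 16.5 to 38.9 CPM. Dcn gave the largest part of the fibroblast sum in fl/fl treated skin, at 388, 205 and 164 CPM, against 6.02, 10.1 and 3.28 CPM in fl/fl tumors. Of the 7 fibroblast genes, 3 were called lower in fl/fl and 1 in ΔK14 cells, and 0 higher. The part of such cells in the Vim result was not tested.

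Cdc42ep2 rested on few reads. It had 39, 14 and 58 reads in fl/fl treated skin and 0, 5 and 2 reads in fl/fl tumors (−3.11 ± 0.67, adjusted p = 0.016). ΔK14 cells gave 46, 19 and 13 reads against 16, 12 and 18 reads (−0.57 ± 0.55, adjusted p = 0.443). Cdc42ep3 changed by 0.68 ± 0.19 in fl/fl (adjusted p = 0.0383), under 2-fold, and rose by 1.05 ± 0.24 in ΔK14 cells (adjusted p = 0.00989).

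For the tubulins, the level summed over isotypes and the share of each isotype were read separately. Per kilobase of exon, the 6 beta tubulins summed to 317 ± 25.5 CPM per kb in fl/fl treated skin and 394 ± 74.7 in fl/fl tumors, and to 332 ± 88.5 and 395 ± 34.3 in ΔK14 cells. The 4 alpha tubulins summed to 186 ± 12.4 and 176 ± 49.3 CPM per kb in fl/fl, and to 192 ± 41.8 and 202 ± 24.5 in ΔK14 cells. The treated and tumor ranges of the alpha sum overlapped in both genotypes, and those of the beta sum overlapped in ΔK14 cells.

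Within the beta pool, Tubb6 was the isotype that rose in both genotypes without a close relative beside it. It read 29.6, 25.0 and 29.3 CPM in fl/fl treated skin and 167, 197 and 200 CPM in fl/fl tumors (2.71 ± 0.19, 6.56-fold, adjusted p = 0.000747). In ΔK14 cells it read 47.9, 32.9 and 26.2 CPM against 138, 171 and 239 CPM (2.25 ± 0.28, adjusted p = 0.00104). Its share of the beta tubulin level per kb went from 3.65% ± 0.54 to 20.2% ± 5.15 in fl/fl and from 4.43% ± 0.865 to 18.8% ± 4.12 in ΔK14 cells. Tubb5, the main isotype, read 763, 686 and 633 CPM in fl/fl treated skin and 947, 402 and 346 CPM in fl/fl tumors, and did not pass the test (−0.33 ± 0.37, adjusted p = 0.529, and −0.30 ± 0.28, adjusted p = 0.429, in ΔK14 cells). Without fl/fl tumor replicate 1 its fl/fl change was −0.91 ± 0.17 (adjusted p = 0.00448), under 2-fold. Its share went from 65.9% ± 3.37 to 41.1% ± 16 in fl/fl and from 65.6% ± 8.28 to 48.5% ± 5.68 in ΔK14 cells. Tubb4b, a broadly expressed isotype, did not pass the test (−0.11 ± 0.18 and 0.11 ± 0.16, adjusted p = 0.682 and 0.623), and its share was 20.3% to 26.4% in the 4 group means.

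Tubb2a and Tubb2b, which share 96.5% of their coding bases, are given separately, although the split of reads between them is uncertain. Tubb2a read 14.4, 16.7 and 17.7 CPM in fl/fl treated skin and 45.2, 83.4 and 118 CPM in fl/fl tumors (2.33 ± 0.35, adjusted p = 0.00496). Its ΔK14 values were 21.7, 29.0 and 21.5 CPM against 24.6, 46.6 and 29.3 CPM (0.37 ± 0.27, adjusted p = 0.314). Tubb2b rose in both genotypes, from 4.24, 3.51 and 4.45 CPM to 17.1, 37.4 and 38.0 CPM in fl/fl (2.89 ± 0.36, adjusted p = 0.00268) and from 6.46, 9.53 and 4.90 CPM to 15.2, 31.4 and 26.6 CPM in ΔK14 cells (1.69 ± 0.35, adjusted p = 0.00695). Tubb3, best known as the isotype of neurons, had 14, 8 and 21 reads in fl/fl treated skin and 30, 19 and 12 reads in fl/fl tumors (1.69 ± 0.67, adjusted p = 0.101), a change of 0.70 ± 0.44 without tumor replicate 1 (adjusted p = 0.237). The ΔK14 libraries had 13, 8 and 10 reads against 73, 93 and 128 reads (3.42 ± 0.34, 10.7-fold, adjusted p = 0.000439). It made up 2.58% ± 0.396 of the beta level in ΔK14 tumors. Markers of Merkel cells, neuroendocrine cells of the epidermis, summed to 1.86 to 3.52 CPM in ΔK14 treated skin and 22.6 to 39.9 CPM in ΔK14 tumors, of which Krt18 gave 18.4 to 34.5 CPM. Atoh1 and Krt20 were at 0 in all 6 tumors and at most 0.261 CPM in any treated library. Isl1 read 0.224, 0 and 0.76 CPM in ΔK14 tumors and 0 in fl/fl tumors and all treated libraries. The part of Merkel cells in the Tubb3 result was not tested.

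Of the alpha tubulins, Tuba1a fell in both genotypes, from 48.4, 64.9 and 57.5 CPM to 31.6, 22.4 and 19.3 CPM in fl/fl (−1.26 ± 0.23, adjusted p = 0.00925) and from 67.6, 44.4 and 39.7 CPM to 26.2, 22.5 and 26.8 CPM in ΔK14 cells (−1.10 ± 0.24, adjusted p = 0.00828). Its share of the alpha tubulin level per kb went from 17% ± 2.58 to 7.76% ± 0.887 in fl/fl and from 14.5% ± 1.74 to 6.95% ± 0.448 in ΔK14 cells. Tuba4a went from a share of 11.3% ± 1.48 to 22.7% ± 2.53 and from 14.2% ± 3.24 to 29.0% ± 4.24, with a call in ΔK14 cells (1.04 ± 0.16, adjusted p = 0.00236) and a change just under 2-fold in fl/fl cells (0.90 ± 0.26, adjusted p = 0.0397). Tuba1b, the main alpha isotype in treated skin, read 211, 193 and 176 CPM against 223, 82.3 and 82.3 CPM in fl/fl and 277, 153 and 162 CPM against 203, 116 and 121 CPM in ΔK14 cells, and was not called, except as lower in fl/fl tumors without fl/fl tumor replicate 1 (−1.25 ± 0.15, adjusted p = 0.000702) or on raw totals (−1.18). Tuba1c changed by 0.78 ± 0.23 and 0.59 ± 0.17, under 2-fold.

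**Figure D3:**
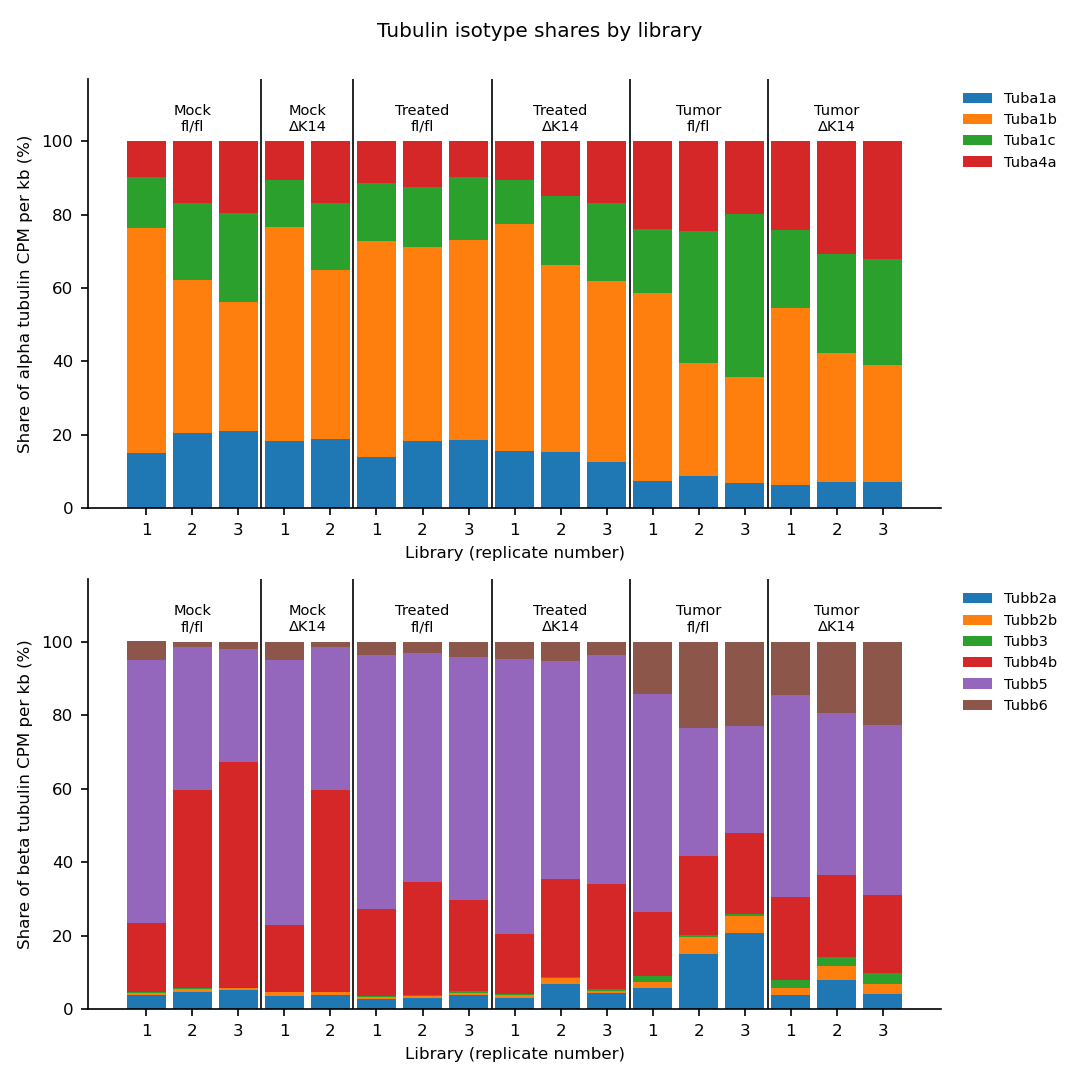
Share of each isotype in the alpha tubulin (upper panel) and beta tubulin level (lower panel), in percent of CPM per kilobase of exon, stacked for each of 17 libraries by group and replicate number. Tubb6 is a thin band in skin and 14.2% or more of the beta level in all 6 tumors, the Tuba1a band is narrower in tumors, and mock replicate 1 of each genotype has more Tubb5 and less Tubb4b than the other mock libraries.

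Stmn1, which encodes stathmin, a protein that holds tubulin dimers and is abundant in dividing cells, read 146, 141 and 175 CPM in fl/fl treated skin and 91.8, 77.1 and 83.9 CPM in fl/fl tumors (−0.91 ± 0.18, adjusted p = 0.012, under 2-fold). For ΔK14, the values were 280, 137 and 142 CPM against 89.2, 72.1 and 64.8 CPM (−1.39 ± 0.30, adjusted p = 0.00801). The summed level of 10 proliferation genes overlapped between treated skin and tumors, at 1040 to 1710 and 705 to 1800 CPM in fl/fl and 1120 to 1750 and 1330 to 2130 CPM in ΔK14 cells.

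Across the 2 genotypes, whose comparisons share no library, 15 members were called higher in both, 88.2% of the 17 in fl/fl and 57.7% of the 26 in ΔK14 cells. They were Actb, Actg1, Cfl1, Cotl1, Actn1, Flna, Fscn1, Tpm2, Tpm3, Tpm4, Myl12a, Tagln2, Msn, Tubb2b and Tubb6. Pfn2, Myh10, Myh14 and Tuba1a were called lower in both, 57.1% of the 7 in either genotype. The same overlap was not counted over all genes, so these percentages have no background to be read against. In fl/fl cells 15 of the 24 calls held whichever library was left out, and in ΔK14 cells 24 of 33 did. The fl/fl calls of Actb, Cfl1, Flna, Tpm3 and Msn were each lost when any 1 of the 3 treated libraries was left out, with log2 changes of 1.05 to 1.35 and adjusted p of 0.0626 to 0.134, and without tumor replicate 1. Vim lost its call without treated replicate 1 or 2 (−2.12 and −2.10, adjusted p = 0.0687 and 0.058), Tagln2 without treated replicate 1 (1.38, adjusted p = 0.0523), Actb without tumor replicate 3 (1.26) and Flna without tumor replicate 2 (1.28), and Cnn3 and Cdc42ep2 in 3 of the 6 such fits each. In ΔK14 cells, Myl9 lost its call in 5 of the 6 fits and Cnn2 in 3, Tuba1a, Cdc42ep1, Cdc42ep3 and Tuba4a fell to changes of 0.83 to 1 in size in 2 each, and Stmn1 fell to −0.97 without treated replicate 1, Zyx to 0.89 and Myl12a to 0.99 without tumor replicate 3. Without fl/fl tumor replicate 1, 13 members were called higher and 8 lower in fl/fl cells, against 10.4% and 13.8% of all genes.

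The other genes of the actin and microtubule machinery, 70 in number, were listed by role. Of 68 tested, 6 were called higher and 1 lower in fl/fl tumors, and 21 higher and 1 lower in ΔK14 tumors, with a median log2 change of 0.48 and 0.74, where 7.5% and 10.5% of all genes were called higher and 10.5% and 15.5% lower. The 6 of 68 in fl/fl tumors were thus near the share of all genes. On raw totals the counts were 2 higher and 3 lower in fl/fl tumors and 10 higher and 2 lower in ΔK14 tumors, beside 3.41% and 20.7%, and 6.08% and 26.6%, of all genes, and without fl/fl tumor replicate 1 they were 6 higher and 2 lower in fl/fl tumors. The ARP2/3 complex, which starts branched filaments, had 3 and 5 of its 9 genes called higher and none lower: Arpc1b changed by 1.51 ± 0.24 and 1.74 ± 0.18 (adjusted p = 0.00544 and 0.00052), Actr2 by 1.16 ± 0.31 and 1.5 ± 0.20 (adjusted p = 0.0321 and 0.00118) and Arpc2 by 1.05 ± 0.30 and 1.44 ± 0.18 (adjusted p = 0.0401 and 0.00111), in fl/fl and ΔK14 cells. On raw totals 0 and 2 of the 9 were called, with Arpc1b at 0.99 and 1.29, Actr2 at 0.62 and 1.06 and Arpc2 at 0.51 and 0.99. Without fl/fl tumor replicate 1, Actr2 and Arpc2 changed by 0.71 and 0.62 in fl/fl cells and only Arpc1b was called (1.24, adjusted p = 0.000482).

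Of 11 capping and monomer factors, 3 and 8 were called higher and none lower, where 7.5% and 10.5% of all genes were called higher. On raw totals 2 and 4 were called higher, beside 3.41% and 6.08% of all genes. Called higher in both genotypes were the monomer binder Twf1 (1.62 ± 0.19 and 1.52 ± 0.21, adjusted p = 0.00248 and 0.00153), the severing protein Dstn (1.30 ± 0.22 and 1.22 ± 0.24, adjusted p = 0.00667 and 0.00525) and Tmsb4x, thymosin beta 4, which holds monomers (1.61 ± 0.41 and 1.95 ± 0.35, adjusted p = 0.0264 and 0.00374). Dstn lost its calls on raw totals (0.80 and 0.79), while Twf1 and Tmsb4x kept theirs. Rnd3 was the gene called lower in both genotypes (−1.12 ± 0.20 and −1.24 ± 0.18, adjusted p = 0.00851 and 0.00169). No gene of the 19 microtubule-associated genes was called in fl/fl and 3 were called higher in ΔK14 cells, and none of Srf and its 2 cofactors was called in either, with 0 and 1 of the 3 at an unadjusted p under 0.05.

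The second question was whether deletion of Zfp36 changes these genes in tumors. No member of the 47 tested was called between ΔK14 and fl/fl tumors by edgeR's quasi-likelihood test, where 0.0284% of all genes were, 10 members passed an unadjusted p under 0.05 beside 14% of all genes, and DESeq2 and edgeR's exact test called 3 and 4 members beside 2.88% and 2.62% of all genes. The values leaned to ΔK14 tumors: 34 of the 47 log2 differences were positive with a median of 0.25, beside −0.02 for all genes. In 17 members all ΔK14 tumors lay above all fl/fl tumors and in none below, where 13.6% and 4.23% of all genes did so.

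With both a separate range and an unadjusted p under 0.05 were 9 members, all higher in ΔK14 tumors, where 6.08% of all genes were so and 3.02% were lower: Tpm1, Tpm4, Myh9, Tln1, Msn, Cdc42ep1, Cdc42ep2, Vim and Tubb3. The largest were Cdc42ep2 (2.21 ± 0.63, adjusted p = 0.234), Vim (2.02 ± 0.47, adjusted p = 0.193), Tubb3 (1.40 ± 0.57, adjusted p = 0.331) and Cdc42ep1 (1.25 ± 0.25, adjusted p = 0.175). Tpm1, at 327, 240 and 303 CPM in fl/fl and 500, 653 and 679 CPM in ΔK14 tumors, differed by 0.94 ± 0.21 (adjusted p = 0.184), and the other 4 by 0.56 to 0.74. Tubb2a was the member that leaned most to fl/fl tumors (−1.44 ± 0.39, adjusted p = 0.226), with ranges that touched at 46.6 CPM in ΔK14 and 45.2 CPM in fl/fl tumors.

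**Figure D4:**
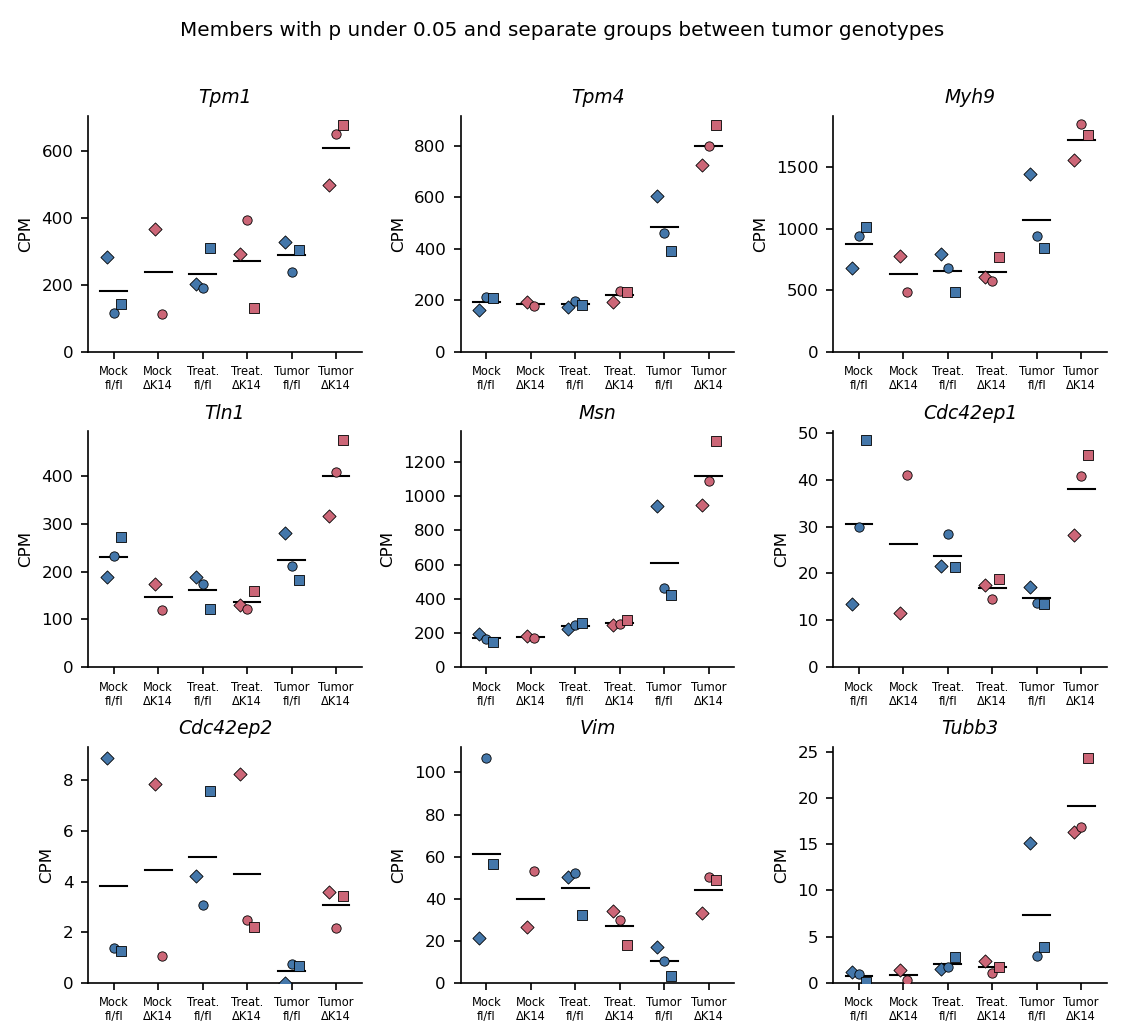
Level in CPM of the 9 members with a separate range and an unadjusted p under 0.05 between tumor genotypes, by group; each point is a library (diamond, circle and square for replicates 1, 2 and 3), blue for Zfp36 fl/fl and red for Zfp36 ΔK14, and the line is the group mean. All red tumor points lie above all blue tumor points, and the blue tumor diamond, fl/fl tumor replicate 1, is the highest blue tumor point in 8 of the 9 genes.

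Whether a member was called by the quasi-likelihood test depended on the low-count filter and on fl/fl tumor replicate 1. With all libraries and no filter, 5 members were called higher and 1 lower, beside 1393 of 32605 genes. With the filter, calls over all genes went from 4 to 2613 without fl/fl tumor replicate 1. The log2 differences of Tpm1 (0.94), Cdc42ep1 (1.25), Cdc42ep2 (2.21) and Tubb2a (−1.44) with all libraries changed little without that replicate. Those of Tubb3 (1.40), Msn (0.74) and Vim (2.02) grew. Cotl1, Capg and Flna differed by 0.84, 0.69 and 0.84 with all libraries on raw totals, less than without that replicate. On the log scale fl/fl tumor replicate 1 lay nearer the mean of the ΔK14 tumors than the mean of the other fl/fl tumors in 36 of the 48 members with a mean count of at least 10. Without it, 9 members were called higher in ΔK14 tumors and 1 lower, beside 7.32% and 9.58% of all genes: Cotl1 (1.36 ± 0.20, adjusted p = 0.00138), Capg (1.40 ± 0.19, adjusted p = 0.00102), Flna (1.28 ± 0.20, adjusted p = 0.00191), Tpm1 (1.06 ± 0.20, adjusted p = 0.00488), Msn (1.22 ± 0.19, adjusted p = 0.00181), Cdc42ep1 (1.38 ± 0.26, adjusted p = 0.00444), Cdc42ep2 (1.93 ± 0.56, adjusted p = 0.0335), Vim (2.48 ± 0.38, adjusted p = 0.0018) and Tubb3 (2.42 ± 0.34, adjusted p = 0.00111) were higher and Tubb2a (−1.69 ± 0.27, adjusted p = 0.00217) was lower. With each of the other 5 tumor libraries left out, none was called.

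Markers of other cells in the tumors were as follows. The leukocyte list summed to 18.5 to 33.1 CPM in fl/fl and 61.9 to 89.5 CPM in ΔK14 tumors, of which Cd74 made up 10.7 to 28.6 and 54.9 to 83.6 CPM, while Ptprc, which encodes the CD45 used in the sort, was at most 1.51 CPM in any tumor. The fibroblast list summed to 83.3 to 200 CPM in fl/fl and 32.9 to 399 CPM in ΔK14 tumors. Krt14 read 15700, 3870 and 4160 CPM in fl/fl tumors and 11000 to 11500 CPM in ΔK14 tumors. It is part of the keratinocyte sum in which fl/fl tumor replicate 1 stood apart from its group. Merkel cell markers summed to 4.52 to 17.1 CPM in fl/fl and 22.6 to 39.9 CPM in ΔK14 tumors, and the 2 of 5 that could be tested, Krt8 and Krt18, did not overlap between genotypes. The proliferation sum was 1800 CPM in fl/fl tumor replicate 1, 736 and 705 CPM in the other fl/fl tumors and 1330 to 2130 CPM in ΔK14 tumors. Skeletal muscle and endothelial lists summed to 4.26 to 9.84 and 8.62 to 39.7 CPM over the tumor and treated libraries. The part of these in the genotype differences was not tested.

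The change from treated skin to tumor was then compared between genotypes directly. No member of 48 was called in this interaction, where 0.0118% of all genes were, and 10 had an unadjusted p under 0.05 beside 13.2% of all genes, while DESeq2 called 3 beside 1.53% of all genes. The largest differences were 2.83 ± 0.58 for Vim (adjusted p = 0.152), 2.54 ± 0.96 for Cdc42ep2 (adjusted p = 0.296), −1.93 ± 0.46 for Tubb2a (adjusted p = 0.207) and 1.81 ± 0.31 for Cdc42ep1 (adjusted p = 0.114). Without fl/fl tumor replicate 1, 8 members were called with a larger rise in ΔK14 cells and 1 with a smaller one, beside 3.49% and 4.04% of all genes: Vim (3.27 ± 0.53, adjusted p = 0.00418), Tubb3 (2.75 ± 0.55, adjusted p = 0.0124), Cdc42ep1 (1.92 ± 0.32, adjusted p = 0.00464), Cotl1, Tln1, Msn, Flna and Actn1 (1.04 to 1.43), and Tubb2a (−2.21 ± 0.37, adjusted p = 0.00495).

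In skin without tumors, no member was called between genotypes. In treated skin 0.00616% of all genes were called, and 5 of 48 members had an unadjusted p under 0.05, beside 5.55% of all genes. In mock skin no gene at all was called (0%), and 0 of 47 members had an unadjusted p under 0.05, beside 1.59% of all genes. Zfp36 itself was not called in mock skin, at −4.13 ± 0.86, so the mock comparison could miss large differences. In treated skin Zfp36 was called, at −3.99 ± 0.35 (adjusted p = 0.0391). With a replicate block, 110 genes and no member were called in mock skin. DESeq2 and edgeR's exact test also called no member in either kind of skin.

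Tumors were also compared with mock skin. In fl/fl cells 10 of 47 members were called higher and 1 lower, against 2.22% and 1.88% of all genes. In ΔK14 cells 19 of 48 were higher and 3 lower, against 7.05% and 7.22%. On raw totals, which shifted the median of all genes by −0.36 and −0.24, the splits were 7 higher and 4 lower, and 14 higher and 4 lower. Over all genes, 1234 of 15394 and 2654 of 15027 were then called in either direction. Cotl1 (3.31 ± 0.44 and 3.73 ± 0.39, adjusted p = 0.015 and 0.00632), Tpm2 (3.25 ± 0.26 and 3.03 ± 0.47, adjusted p = 0.00483 and 0.0139) and Fscn1 (3.71 ± 0.81 and 4.21 ± 0.83, adjusted p = 0.0493 and 0.0248) rose in both genotypes, and Myh14 fell in both (−3.52 ± 0.69 and −4.48 ± 0.43, adjusted p = 0.0382 and 0.00568). Actb changed by 1.08 ± 0.31 and 0.89 ± 0.27 and did not pass the test (adjusted p = 0.0823 and 0.0661). Without mock replicate 1, Fscn1 changed by 5.24 ± 0.38 and 6.35 ± 0.50 and Tpm2 by 3.39 ± 0.25 and 4.01 ± 0.32.

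These counts changed with the libraries used. In each genotype mock replicate 1 differed from the mean of the other mock libraries (1 library in ΔK14) by more than 2-fold in the same direction in 17 of the 48 members: 13 were higher, among them Cnn3 (120 against 7.46 and 5.22 CPM in fl/fl, and 129 against 5.41 CPM in ΔK14), Fscn1 (47.6 against 6.48 and 8.12 CPM, and 39.8 against 5.41 CPM), Stmn1 (275 against 62.3 and 45.3 CPM, and 275 against 76.4 CPM) and Tubb6 (48.6 against 8.25 and 8.70 CPM, and 44.9 against 10.8 CPM), and 4 were lower, among them Gsn (78.3 against 777 and 885 CPM, and 84.2 against 550 CPM). These genes were named after their values were seen. The proliferation sum was 2050 and 2020 CPM in mock replicate 1 of fl/fl and ΔK14 and 521 to 942 CPM in the other mock libraries, and Krt10 was 421 and 386 CPM against 3390 to 4410 CPM.

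Without mock replicate 1, tumors against mock skin gave 15 higher and 5 lower in fl/fl cells, beside 9.45% and 11.5% of all genes, and 25 higher and 4 lower in ΔK14 cells, beside 14.7% and 13.4%, where 1 mock library was left and was assumed to vary like the tumors. Leaving out most other libraries lowered the counts. In fl/fl cells they fell to 1 without mock replicate 2, mock replicate 3 or tumor replicate 2. They fell to 2 without tumor replicate 3 and to 6 without tumor replicate 1. In ΔK14 cells they fell to 7, 2 and 4 without tumor replicates 1, 2 and 3. The ΔK14 count rose without mock replicate 2, where 1 mock library was again left. Calls over all genes moved the same way in these fits, except without fl/fl tumor replicate 1, where they barely changed.

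**Figure D5:**
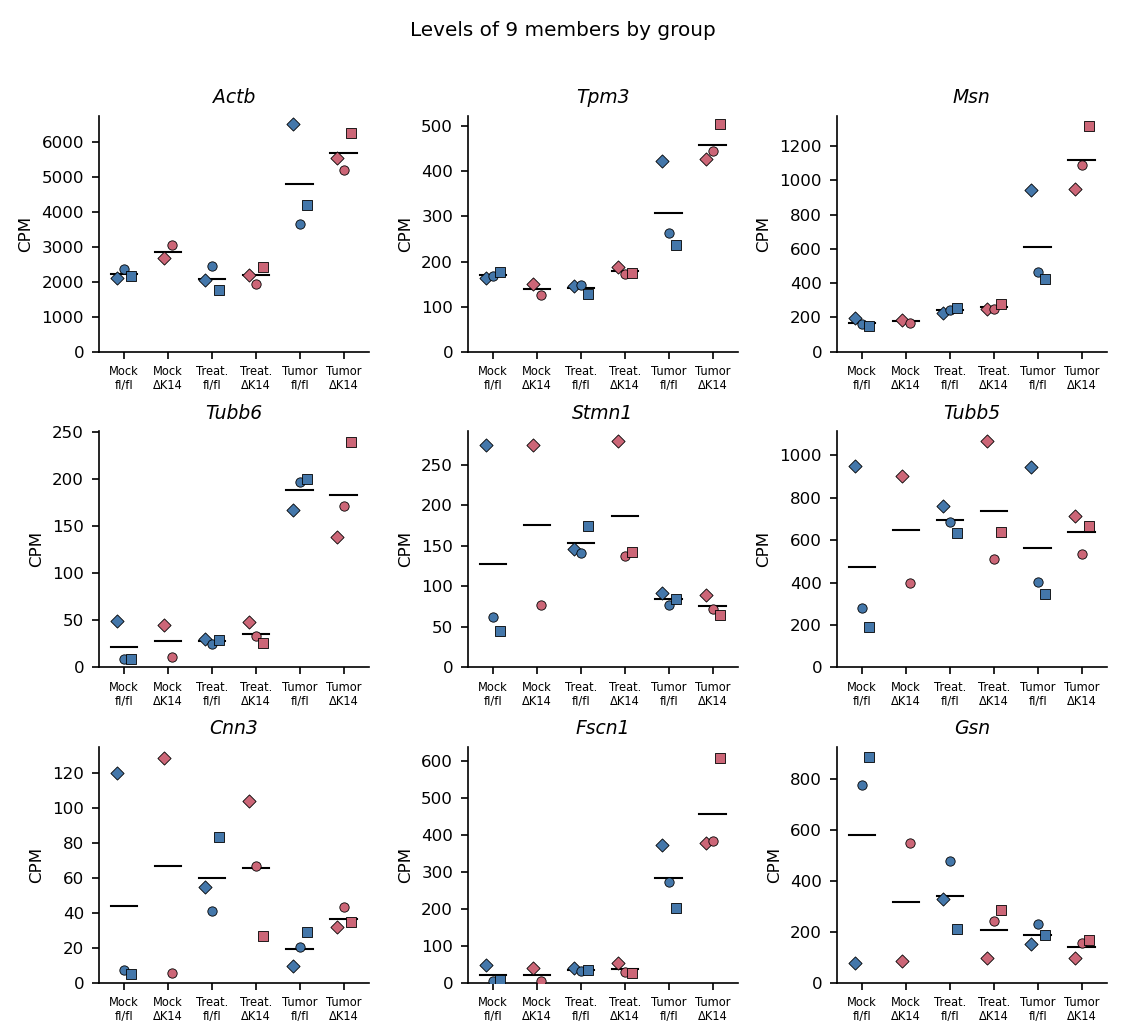
Level in CPM of 9 members in the 6 groups; each point is a library (diamond, circle and square for replicates 1, 2 and 3), blue for Zfp36 fl/fl and red for Zfp36 ΔK14, and the line is the group mean. Actb, Tpm3, Msn, Tubb6 and Fscn1 are higher in all tumors than in all skin libraries, and the mock diamonds stand apart from the other mock points in Tubb6, Stmn1, Tubb5, Cnn3, Fscn1 and Gsn.

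Between treated and mock skin, no member of 48 was called in fl/fl cells and none of 47 in ΔK14 cells by edgeR's quasi-likelihood test, beside 0% of all genes. At an unadjusted p under 0.05 were 6 and 0 members, beside 5.5% and 4.8% of all genes, and DESeq2 called 1 and 0, where it called 0.715% of all genes in fl/fl cells. Without fl/fl mock replicate 1, 12 members were called higher in treated skin and 2 lower, beside 7.97% and 7.16% of all genes. The higher ones included Cnn3 (3.31 ± 0.36, adjusted p = 0.0017), Fscn1 (2.29 ± 0.21, adjusted p = 0.00112), Tubb6 (1.75 ± 0.18, adjusted p = 0.0016), Actn1 (1.59 ± 0.17, adjusted p = 0.0016), Tubb5 (1.59 ± 0.23, adjusted p = 0.00399) and Stmn1 (1.56 ± 0.20, adjusted p = 0.00267), and the lower ones were Gsn (−1.26 ± 0.30, adjusted p = 0.0231) and Cnn2 (−1.48 ± 0.37, adjusted p = 0.0273).

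Features of sequence that the choice of genes did not use were then read from the reference. Serum response factor, with its actin-sensing cofactors, is known to bind the CArG box in promoters of many actin genes. Of the 43 members with a promoter of 300 bases listed by RefSeq (250 before and 50 after the start, GRCm38), 5 held a CArG box (11.6%), against 1.76% of 19499 genes of the count table. The motif reads the same on both strands. These 5 windows of 30 bases, on the gene's strand, show the box in capitals:
Actg1, chr11:120348566-120348595, minus strand: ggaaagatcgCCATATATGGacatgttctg
Myl6, chr10:128493040-128493069, minus strand: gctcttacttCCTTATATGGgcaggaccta
Myl9, chr2:156775293-156775322, plus strand: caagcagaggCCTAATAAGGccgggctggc
Cnn2, chr10:79988534-79988563, plus strand: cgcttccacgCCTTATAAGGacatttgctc
Vcl, chr14:20929161-20929190, plus strand: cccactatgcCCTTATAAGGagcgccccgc

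The members that held a box did not share a direction in tumors: Actg1 rose in both genotypes, Vcl lay at the 2-fold line in both, Cnn2 was called higher in ΔK14 cells, Myl6 changed by under 2-fold and Myl9 was called lower in ΔK14 cells. Actb, Cotl1, Tagln, Tubb2b, Tubb6 and Stmn1 have no entry in that table.

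Tristetraprolin is known to bind the heptamer UAUUUAU, written TATTTAT in the reference, in 3′ untranslated regions. On the sense strand it occurred in 6 of the 49 members (12.2%), against 27.6% of 20905 genes of the count table with such a region, and its core ATTTA, which the heptamer contains, in 55.1% against 65.7%. The median length of the region was 956 bases in members and 1066 bases in all genes. The 6 sites are shown with 8 bases on either side, as DNA of the sense strand, with the heptamer in capitals:
Tpm1: tgtaaagaTATTTATaccaatca
Tpm4: ctcactccTATTTATtaagcatc
Myl12a: ttgttttaTATTTATtctcagcc
Cnn3: ttcaactgTATTTATtgctgcgt
Vcl: atggtatcTATTTATcagaaagg
Ezr: gaggatagTATTTATatataagc

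Tpm1 and Tpm4 were among the 9 members named above for their genotype difference in tumors, and the other 7 of the 9 held no heptamer. Over the 6 members with the heptamer the genotype difference in tumors ran from −0.12 to 0.94 on the log2 scale with a median of 0.48, and over the 41 tested members without it from −1.44 to 2.21 with a median of 0.22. A match is a description of the letters and no evidence of binding.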

How the data were processed

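RNA-seq counts per gene were deposited by the authors as 1 table of 18 libraries and 52636 Ensembl genes. The submitters' processing notes name Trimmomatic 0.36, STAR 2.5.3, HTSeq 0.9.1, DESeq2 and the mm10 genome; libraries were made from sorted cells with a low-input kit. Strand use, annotation release and the handling of duplicates and of reads matching several genes are not given in the sources used here.

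The 49 members and all gene lists were chosen with earlier results of these data known. Each comparison was fitted on the groups compared with edgeR 4.0.16 (R 4.3.3; filterByExpr, TMM scaling, quasi-likelihood test), with Benjamini-Hochberg adjustment over all genes tested. A call needed an adjusted p below 0.05 with more than a 2-fold change. The script was tested on simulated data. CPM used TMM-scaled library sizes, and levels were divided by GENCODE vM21 exon length where genes were compared; 52489 IDs matched. Members were named where called in tumors against treated skin in a genotype, or where tumor genotypes did not overlap at an unadjusted p under 0.05, beside 9 genes fixed by name, and the other members are given by range, count or fold change; of other cytoskeleton genes, up to 8 with the smallest p called in both genotypes were named. Identical mock ΔK14 columns counted as 1 library. The labels do not say that libraries came from separate animals, so p-values measure the spread between these samples, which may be technical. Alternatives were DESeq2 1.42.0, edgeR's exact test, a single fit, RLE scaling, other filters, adjusted p alone, a replicate block and each library left out; raw library totals, leaving out 2 libraries together, and a term for mock replicate 1 were chosen after seeing the data. Replicate numbers were checked for pairing: deviations of same-numbered samples correlated at −0.58 to 0.81, and no comparison with 3 pairs had every correlation over 0.1. The comparisons with ΔK14 mock skin, which had fewer pairs, did. Correlations were 0.81 and 0.61 between mock genotypes, 0.6 and 0.14 with ΔK14 treated skin, and 0.11 and 0.14 with ΔK14 tumors.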

Additional observations from a re-analysis of the deposited data

Results flagged for a closer look

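Cdc42ep1 was flagged because its treated and tumor libraries did not overlap in either genotype and the change had opposite signs. Its log2 change was 1.07 in ΔK14 and −0.73 in fl/fl cells, and the test of the difference itself gave 1.81 ± 0.31 with an adjusted p of 0.114 by edgeR's quasi-likelihood test.

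Between mock and treated skin, the groups of Pfn2 did not overlap and the change had opposite signs, −0.54 in ΔK14 and 0.46 in fl/fl cells. Tpm3 had the reverse pattern, with 0.36 in ΔK14 and −0.25 in fl/fl cells. Neither difference between genotypes was tested, and neither gene was called in either genotype.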

How the results depend on the processing

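In tumors against treated skin, 12 of the 24 fl/fl calls and 17 of the 33 ΔK14 calls were kept under every alternative other than leaving a library out, and the counts with a library left out ran from 16 to 24 and from 26 to 34. On raw library totals 21 members were called in ΔK14 cells, beside 4997 of 15289 genes. The summed member levels then moved to 11100 CPM in fl/fl mock skin, 11500 in fl/fl treated skin, 11200 in ΔK14 treated skin and 18600 in ΔK14 tumors. Signs turned on raw totals for Tpm1 (−0.23), Zyx (−0.25) and Tln1 (−0.05) in fl/fl and Tubb2a (−0.07) in ΔK14 cells, without ΔK14 treated replicate 1 for Cdc42ep2 (0.29; range with a library left out −0.86 to 0.29) and Tubb5 (0.08; −0.49 to 0.08), and, between tumor genotypes, for Actb (−0.04; −0.04 to 0.42) without fl/fl tumor replicate 2 and Tubb6 (0.01; −0.36 to 0.01) without ΔK14 tumor replicate 1; none of the turned values passed the test. Tumors against mock skin gave 11 calls in fl/fl cells, 24 by DESeq2, 22 by the exact test and 24 in a single fit. The same comparison gave 21 without a low-count filter, 27 without both libraries that stood apart, and 1 to 20 with a library left out. Calls over all genes moved with them, from 632 to 2201, 2058, 3205, 2595, 4973, and 30 to 3277. In ΔK14 cells, 22 calls became 2 to 7 with a tumor library left out, and calls over all genes fell too. The genotype comparison in tumors gave 0 calls (4 over all genes), 3 by DESeq2 (366), 4 by the exact test (368), 6 without the filter (1393) and 0 to 10 with a library left out. In treated skin it gave 1 call without the filter. Treated against mock fl/fl skin gave 1 call by DESeq2, 1 by the exact test and 0 to 14 with a library left out, and the interaction gave 3 by DESeq2 (230 over all genes, against 2), 3 without the filter (1003) and 0 to 9. Of the other cytoskeleton genes, 12 were called in ΔK14 tumors against treated skin on raw totals, against 22. The cause of these changes was not tested. With a replicate block, tumors against mock skin gave 4 calls in fl/fl and 11 in ΔK14 cells, and tumors against treated skin 22 and 34; samples share only a number, and in tumors against treated skin 1 of 6 fl/fl and 4 of 6 ΔK14 samples correlated best with their own number. The shallowest library, with 2808550 counts, and members with few reads, such as Cnn1 and Cdc42ep2, limit what could be detected.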
